A study of Mus musculus with 12 samples.

Results

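The 9 genes described here, Krt8, Krt7, Krt18, Krt19, Cldn4, Areg, Sfn, Sprr1a and Lgals3, are used in the lung field as markers of a transitional alveolar epithelial state. They were taken by symbol from the 31053 genes of the deposited tables and followed as raw counts of unique molecular identifiers (UMIs, 1 per captured RNA molecule) in 12 single-nucleus libraries, each from the lung of 1 mouse. C57BL/6J mice received bleomycin, an agent whose lung injury is followed by fibrosis, or PBS into the trachea at 7 weeks of age. From day 5 they received NVP-BHG712, an inhibitor of the receptor tyrosine kinase EphB4, or its vehicle for 5 days, and lungs were harvested on day 14. The design thus asked what bleomycin does to lung cells and what EphB4 inhibition changes after bleomycin. The 4 groups, with 3 mice each, are PBS_Vehicle (PBS, then vehicle), PBS_NVP-BHG712 (PBS, then inhibitor), Bleo_Vehicle (bleomycin, then vehicle) and Bleo_NVP-BHG712 (bleomycin, then inhibitor). All mice were wild type, and the inhibitor was given to the whole animal rather than to 1 cell type. Nuclei were released from frozen lung and sorted by DAPI, which removes most cytoplasmic RNA.

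Gas exchange takes place across thin type I cells, while cuboidal type II cells make surfactant and act as progenitors of type I cells. After injury, type II cells can pass through an intermediate state with high keratin 8 on the way to the type I state, and such cells accumulate when repair fails. Keratins 7, 8, 18 and 19 are the intermediate filament proteins of simple epithelia, claudin-4 (Cldn4) is a tight junction protein, amphiregulin (Areg) is a secreted ligand of the EGF receptor, stratifin (Sfn, 14-3-3 sigma) is a p53 target that restrains the cell cycle, Sprr1a is a precursor of the cornified envelope, and galectin-3 (Lgals3) is a sugar-binding protein that macrophages also make in quantity.

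After filtering, 44611 of 49163 barcodes were used. Of these, 6431 nuclei were classed as type I, 4833 as type II, 1853 as club (secretory airway cells) and 1698 as ciliated. Names were rebuilt from marker genes and are to be read as type I-like and so on. Libraries held between 3556084 and 61947688 UMIs, with a median of 925 to 5408 UMIs per barcode, and any pair of libraries shared at most 32 barcodes. The Bleo_Vehicle libraries stood apart, with a median mitochondrial share of 2.56%, 1.32% and 0.668% against at most 0.0496% in the other 9 libraries. They also carry batch numbers (6, 6 and 7) where the other libraries carry run numbers (1 to 4), so the batch and bleomycin with vehicle cannot be told apart, and all 3 Bleo_NVP-BHG712 libraries came from run 4. Type II markers remained in the type II class in every library, with a summed level of 13027 to 14848 CPM (UMIs of a gene per 1000000 UMIs of the same nuclei) in PBS_Vehicle, 5119 to 11778 in Bleo_Vehicle and 13473 to 14858 in Bleo_NVP-BHG712. Type I markers in the type I class summed to 14440 to 18530, 7471 to 12790 and 13613 to 15678 CPM in the same groups.

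The coding loci of the 4 keratins lie in 2 clusters of the mouse genome (GRCm38, GENCODE annotation). Krt7 (chr15:101411043-101430313, plus strand), Krt8 (chr15:101996698-102004482, minus) and Krt18 (chr15:102028180-102032027, plus) share chromosome 15, and Krt19 (chr11:100140810-100148665, minus) lies on chromosome 11. Cldn4 (chr5:134945119-134946934, minus) and Areg (chr5:91139599-91148432, plus) are both on chromosome 5, Sfn is at chr4:133600556-133602168 (minus), Sprr1a at chr3:92483952-92485895 (minus) and Lgals3 at chr14:47367751-47386160 (plus).

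Upstream sequences are shown for Cldn4, Sfn and Lgals3, which passed a test between groups below, and for Sprr1a, which was too sparse for the test. RefSeq promoter windows (GRCm38.p6) matched 8 of the 9 members by symbol, without Krt19. Each line gives the 250 bases before the transcription start of the RefSeq model, 5′ to 3′ on the gene's strand, at chr5:134946935-134947184 for Cldn4, chr3:92485882-92486131 for Sprr1a, chr4:133602169-133602418 for Sfn and chr14:47373610-47373859 for Lgals3. The Lgals3 window, like that of Krt7 named below, lies inside the locus given above. It is therefore upstream of the RefSeq start only, not of the GENCODE gene start. Capitals mark exact matches to TGACTCA (reverse complement TGAGTCA), the site bound by AP-1 factors such as Fos and Jun.
Cldn4: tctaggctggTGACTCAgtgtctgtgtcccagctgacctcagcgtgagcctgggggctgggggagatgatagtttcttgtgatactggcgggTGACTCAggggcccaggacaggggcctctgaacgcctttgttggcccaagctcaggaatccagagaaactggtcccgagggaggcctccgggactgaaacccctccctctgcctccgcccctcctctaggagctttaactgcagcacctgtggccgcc
Sprr1a: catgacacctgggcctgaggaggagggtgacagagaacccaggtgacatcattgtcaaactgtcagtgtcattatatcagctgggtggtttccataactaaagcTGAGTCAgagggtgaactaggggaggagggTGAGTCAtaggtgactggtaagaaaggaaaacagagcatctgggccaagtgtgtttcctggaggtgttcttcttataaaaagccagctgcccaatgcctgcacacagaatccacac
Sfn: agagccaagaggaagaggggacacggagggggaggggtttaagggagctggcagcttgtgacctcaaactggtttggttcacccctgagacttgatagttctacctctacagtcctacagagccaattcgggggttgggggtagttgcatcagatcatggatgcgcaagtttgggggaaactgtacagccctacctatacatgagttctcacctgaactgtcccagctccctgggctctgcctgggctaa
Lgals3: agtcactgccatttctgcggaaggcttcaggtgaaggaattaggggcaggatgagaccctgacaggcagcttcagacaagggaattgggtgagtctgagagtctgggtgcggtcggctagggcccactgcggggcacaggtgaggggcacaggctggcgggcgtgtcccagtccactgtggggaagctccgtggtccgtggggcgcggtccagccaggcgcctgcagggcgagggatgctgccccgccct
Cldn4 and Sprr1a each held 2 matches, starting 240 and 158 bases upstream of the start in Cldn4 and 146 and 116 bases upstream in Sprr1a, whereas Sfn and Lgals3 held none. Among all 32851 promoter windows of 300 bases, which reach 50 bases past the start, 5.20% held at least 1 such match. The Areg window held no such match but 1 match to the cAMP response element TGACGTCA, 61 bases upstream, a sequence found in 1.79% of the windows. No AP-1 or CRE match stood in the Krt7, Krt8 and Krt18 windows. A match is a description of these letters and was not tested for binding.

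To see where each gene was read, the UMIs of each class were added up within a library. Levels are given as CPM and as mean ± SD over the libraries. These levels and their order are descriptions without a test. Krt7 was highest in type I nuclei (275 ± 100, n = 12), and 74.5% of its UMIs came from that class. The next class, mesothelial, stood at 91.6, and the SD ranges of the first and second class did not overlap. Club (90.2) and type II nuclei (65.3) followed closely and could not be separated from mesothelial by their spread. Type I nuclei thus carried Krt7 in every group, PBS controls included, and Krt7 was the only keratin of the 4 with its highest level in alveolar nuclei.

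Over all 12 libraries, airway nuclei led in Krt8 and its dimer partner Krt18. Krt8 stood at 46.4 ± 18.7 CPM in ciliated and 35.2 in club nuclei, against 25.8 in type II and 24.5 in type I nuclei. Krt18 stood at 41.6 in club, 34.7 in ciliated, 19.8 in type II and 13.7 in type I nuclei. Krt19 was highest in club nuclei (43.7), followed by alveolar macrophage nuclei (27.4), mesothelial nuclei (25.7), type I nuclei (22.9) and ciliated nuclei (22.1). Neighbouring classes in each of these orders overlapped within their spread. The order was not that of each group, as the Krt8 means of Bleo_Vehicle were 40.5 in type I, 38.7 in type II, 30.1 in club and 23.4 in ciliated nuclei.

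Areg was highest in type II nuclei (68.1 CPM), which held 57.9% of its UMIs, followed by ciliated nuclei (36.3). Lgals3 was highest in interstitial macrophage or monocyte nuclei (280) and alveolar macrophage nuclei (262), and type I nuclei stood at 80.6. Alveolar macrophages held 33.2% and type I nuclei 28.2% of all Lgals3 UMIs. The remaining members were sparse, with 585 UMIs in all 12 libraries for Sfn, 153 for Cldn4 and 60 for Sprr1a. Of these, type II nuclei held 30.1% of the Cldn4 and 55.0% of the Sprr1a UMIs, and type I nuclei held 28.8% of the Cldn4 and 26.5% of the Sfn UMIs. By level, Cldn4 (4.92 CPM, 2 UMIs) and Sprr1a (24.3 CPM, 9 UMIs) were highest in neuroendocrine nuclei, a class with values from 3 libraries, and type II nuclei stood at 3.63 and 1.75 CPM. Sfn was highest in B cell nuclei (15.9 CPM, 18 UMIs), and type I and type II nuclei were the eighth and ninth class (4.64 and 3.49 CPM). Neighbouring classes overlapped within their spread for these genes as well, with an exception in Lgals3. Its SD ranges in alveolar macrophage nuclei (262 ± 76.1 CPM) and type I nuclei (80.6 ± 60.8 CPM) did not overlap.

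**Figure D1:**
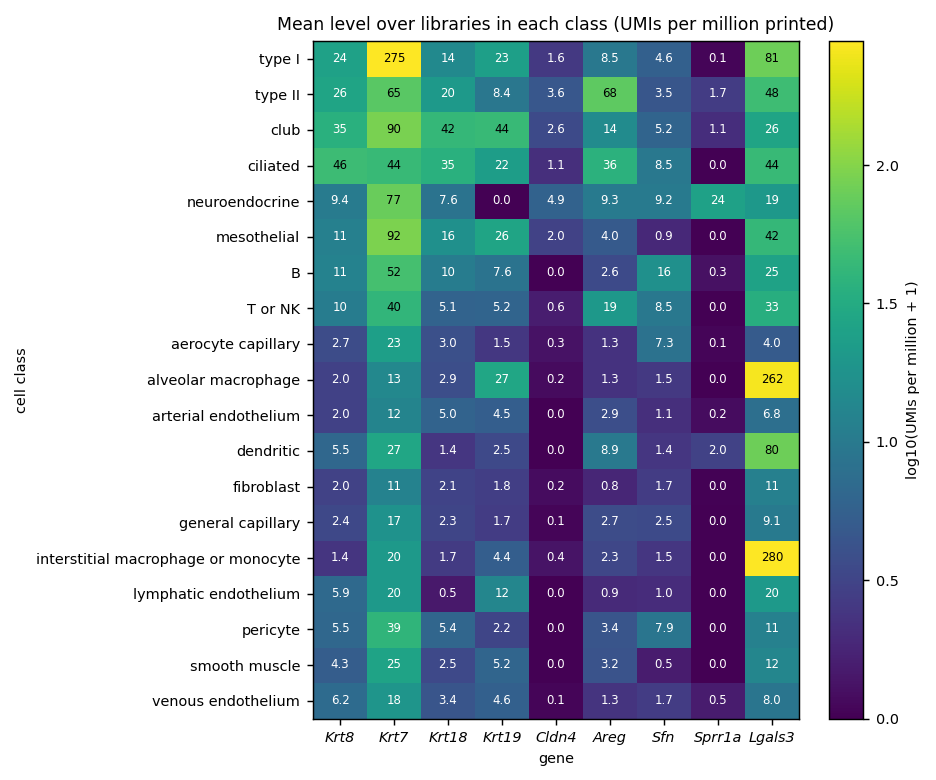
Each cell gives the mean level of a gene (columns) in a cell class (lines) over the libraries with at least 20 nuclei of the class, printed in CPM, and the colour shows log10 of that value plus 1. Krt7 stands out in type I nuclei (275), Areg in type II nuclei (68), and Lgals3 in both macrophage classes (262 and 280).

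The comparison of Bleo_Vehicle with PBS_Vehicle addressed the effect of bleomycin. In type I nuclei, 5 members (Krt8, Krt19, Cldn4, Areg and Sfn) were higher in every Bleo_Vehicle library than in any PBS_Vehicle library. Of these, 3 (Krt8, Krt19 and Areg) were among the 6 members that passed the filter on low counts, and 9.79% of all 9297 genes tested were higher in the same way. Areg passed the filter only with the Bleo_Vehicle libraries counted. None of the 6 passed the test, against 3.93% of all genes called in either direction, and the lowest adjusted p of a member was 0.140 (edgeR quasi-likelihood test with Benjamini-Hochberg adjustment). At an unadjusted p under 0.05 there were 3 members, DESeq2 called 2 (Sfn and Cldn4), and without the filter on low counts edgeR called 5 (Sfn, Areg, Cldn4, Lgals3 and Krt8). Among type II nuclei, Krt8, Krt19, Cldn4, Sfn and Lgals3 did not overlap between the groups, of which Krt8 and Lgals3 were among the 5 members tested, and 6.89% of all genes tested did not overlap on that side. Krt18 passed the filter there only with the Bleo_Vehicle libraries counted. None of the 5 members tested passed the test (3.04% of 6457 genes called). There 4 members were at an unadjusted p under 0.05, DESeq2 called 0, and edgeR without the filter called 4 (Sfn, Areg, Cldn4 and Lgals3).

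The comparison of Bleo_NVP-BHG712 with Bleo_Vehicle addressed the effect of the inhibitor after bleomycin. It shares the Bleo_Vehicle libraries with the first comparison, so that an extreme Bleo_Vehicle library moves both in opposite directions, and values are given side by side only. In type I nuclei, Krt8, Krt19, Cldn4 and Sfn were lower in every Bleo_NVP-BHG712 library than in any Bleo_Vehicle library, of which Krt8 and Krt19 were tested (16.0% of all genes tested), with 0 members called by edgeR against 5.24% of all genes and a lowest adjusted p of 0.112. At an unadjusted p under 0.05 there were 4 members, DESeq2 called 1 (Sfn), and edgeR without the filter called 6 (Sfn, Areg, Lgals3, Krt19, Krt8 and Krt18). For type II nuclei the 5 members that did not overlap in the first comparison also did not overlap here, on the lower side, again with Krt8 and Lgals3 as the tested ones (11.2% of all genes tested). Of the 5 members tested in type II nuclei, Lgals3 was called, against 4.85% of all genes in either direction and 2.79% lower, and without the filter Sfn, Areg and Cldn4 were called beside it.

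Krt8, the keratin that names the intermediate state, was measured at 23.1, 17.5 and 16.9 CPM in the type I nuclei of the 3 PBS_Vehicle libraries, and at 69.1, 29.1 and 23.2 in those of Bleo_Vehicle. The inhibitor groups stood at 27.1, 13.2 and 16.6 (PBS_NVP-BHG712) and at 22.3, 16.2 and 19.3 (Bleo_NVP-BHG712). The first Bleo_Vehicle library lay far above the other 2, whose values reached those of the PBS libraries within a few CPM. Group means were 19.2 ± 3.42, 19.0 ± 7.23, 40.5 ± 25 and 19.3 ± 3.08 (SD, n = 3 each) in the order PBS_Vehicle, PBS_NVP-BHG712, Bleo_Vehicle and Bleo_NVP-BHG712, an order kept in all lists of values here. The fitted log2 difference was 1.05 (SE 0.38, adjusted p = 0.140) for Bleo_Vehicle over PBS_Vehicle and -1.01 (SE 0.39, adjusted p = 0.149) for Bleo_NVP-BHG712 over Bleo_Vehicle.

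Type II nuclei held Krt8 at 18.3, 25.9 and 21.0 CPM in PBS_Vehicle and at 46.1, 35.7 and 34.4 in Bleo_Vehicle, and at 31.9, 13.5 and 27.9 in Bleo_NVP-BHG712. All 3 Bleo_Vehicle libraries lay above all others here, and the spread within the group was small (38.7 ± 6.43). The log2 differences were 0.96 (SE 0.33, adjusted p = 0.131) and -0.73 (SE 0.36, adjusted p = 0.255). PBS_NVP-BHG712 stood at 20.2, 19.8 and 14.7, within the range of PBS_Vehicle or just under it.

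Krt7, the type I keratin, was read in type I nuclei at 235, 213 and 275 CPM in PBS_Vehicle, at 575, 279 and 201 in Bleo_Vehicle and at 284, 210 and 251 in Bleo_NVP-BHG712. Without the first Bleo_Vehicle library the groups overlapped fully. The log2 differences were 0.59 (SE 0.32, adjusted p = 0.368) and -0.49 (adjusted p = 0.432). Krt7 in type II nuclei stood at 44.1, 69.0 and 47.2 in PBS_Vehicle and at 149, 86.4 and 62.2 in Bleo_Vehicle, with overlap and a log2 difference of 0.96 (adjusted p = 0.225).

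Krt18 showed the same single high library in type I nuclei, with 44.1, 8.73 and 14.9 CPM in Bleo_Vehicle against 12.9, 7.51 and 12.2 in PBS_Vehicle and 12.0, 4.19 and 7.73 in Bleo_NVP-BHG712. The groups overlapped, and the log2 differences of 1.01 (SE 0.55, adjusted p = 0.364) and -1.44 (SE 0.59, adjusted p = 0.178) did not pass. The type II values of Krt18, which were 31.9, 24.6 and 18.6 in Bleo_Vehicle, met those of PBS_Vehicle (18.8, 12.9 and 15.7), and the log2 difference was 0.63 (adjusted p = 0.517). The highest type II value of any library (34.2) lay outside both groups.

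Krt19 was more even among the Bleo_Vehicle libraries in type I nuclei, with 45.6, 27.3 and 27.9 CPM against 24.2, 13.1 and 19.6 in PBS_Vehicle and 21.5, 15.6 and 12.7 in Bleo_NVP-BHG712. The Bleo_Vehicle values lay above those of both groups, yet 1 PBS_NVP-BHG712 library (32.7) lay among them. Log2 differences were 0.82 (SE 0.33, adjusted p = 0.193) and -0.99 (SE 0.35, adjusted p = 0.112). Type II nuclei held little Krt19, which did not pass the filter, at 3.05 ± 1.16 in PBS_Vehicle, 8.38 ± 1.34 in PBS_NVP-BHG712, 16.1 ± 7.57 in Bleo_Vehicle and 5.98 ± 5.21 in Bleo_NVP-BHG712.

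**Figure D2:**
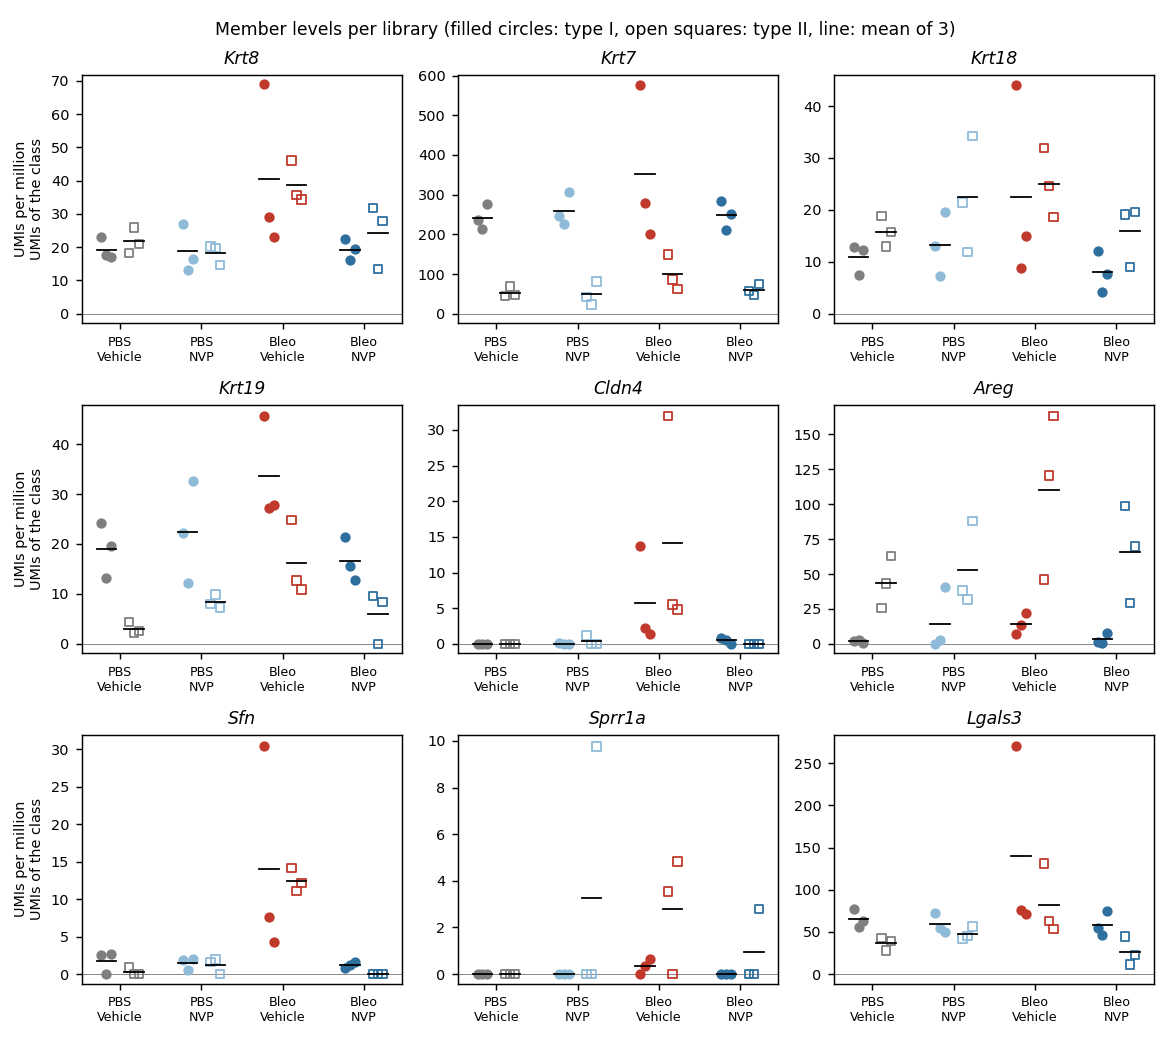
Each point is the level of 1 library in CPM of the class (vertical axis) by group, with filled circles for type I nuclei, open squares for type II nuclei and lines for the mean of 3. Cldn4 is at 0 in all PBS_Vehicle libraries of both classes, and 1 Bleo_Vehicle library is far above the others in type I nuclei for Krt8, Krt7, Krt18 and Lgals3.

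In alveolar nuclei Cldn4 was nearly absent outside Bleo_Vehicle, whereas 3 of 345 club nuclei of PBS_Vehicle held a UMI of it. In type I nuclei, the 3 PBS_Vehicle libraries held 0, 0 and 0 UMIs, PBS_NVP-BHG712 held 1, 0 and 0, Bleo_Vehicle held 18, 6 and 17, and Bleo_NVP-BHG712 held 1, 1 and 0. Relative to depth the pooled Bleo_Vehicle level was at least 7.17-fold higher than PBS_Vehicle, taking a floor of 3 UMIs over the group, and 5.83-fold that of Bleo_NVP-BHG712 (95% counting interval 1.51 to 49.8). Among type II nuclei Bleo_Vehicle held 9, 7 and 27 UMIs against 0 in all 3 libraries of PBS_Vehicle and of Bleo_NVP-BHG712, which is at least 6.31-fold and at least 2.25-fold higher. These intervals and bounds cover counting error only, not the spread between mice, and Cldn4 was too sparse for the test in either class.

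The Cldn4 UMIs came from few nuclei. In Bleo_Vehicle, 24 of 2953 type I nuclei (0.813%) and 29 of 2342 type II nuclei (1.24%) held at least 1. In PBS_NVP-BHG712, 1 of 1761 type I and 1 of 1124 type II nuclei did. In PBS_Vehicle, 0 of 1014 type I and 0 of 828 type II nuclei did. Taken over the pooled nuclei of 3 mice, and for counting error only, this allows up to 0.296% and 0.362% of nuclei with a UMI, and sets no limit on the nuclei that express the gene. For background, general capillary nuclei, which should lack this epithelial junction gene, stood at 0 CPM in PBS_Vehicle and 0.311 in Bleo_Vehicle, against 5.75 ± 6.88 in the type I and 14.1 ± 15.4 in the type II nuclei of Bleo_Vehicle. The mean Cldn4 level in alveolar nuclei of Bleo_Vehicle was thus over that of the capillary class, but differed widely between its libraries. Single libraries of other classes reached 17.2 (mesothelial), 4.64 (T or NK) and 3.88 CPM (interstitial macrophage or monocyte), on 2, 2 and 4 UMIs in all libraries. The part of free RNA in the alveolar values was not tested.

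Sfn was read in type I nuclei with 14, 0 and 4 UMIs in PBS_Vehicle, 13, 1 and 4 in PBS_NVP-BHG712, 40, 21 and 52 in Bleo_Vehicle and 1, 2 and 3 in Bleo_NVP-BHG712. In CPM, Bleo_Vehicle (14.1 ± 14.2) lay above each library of PBS_Vehicle and Bleo_NVP-BHG712. The pooled ratio was 3.29 (95% counting interval 1.99 to 5.76) over PBS_Vehicle and 5.36 (2.39 to 14.9) over Bleo_NVP-BHG712. Sfn in type II nuclei had 2, 0 and 0 UMIs in PBS_Vehicle, 4, 14 and 68 in Bleo_Vehicle and 0 in all 3 Bleo_NVP-BHG712 libraries. The Bleo_Vehicle libraries were close to each other in CPM (12.5 ± 1.57), with a pooled ratio of 18.9 (5.08 to 159) over PBS_Vehicle and at least 4.49 over Bleo_NVP-BHG712. Sfn did not pass the filter in either class.

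Sfn was not particular to epithelial nuclei. Alveolar macrophage nuclei held it at 0 CPM in the other 3 groups and at 6.13 ± 4.86 in Bleo_Vehicle, and interstitial macrophage nuclei at 0 and 5.81. General capillary nuclei held 3.51, 4.32, 2.35 and 0, with no higher level in Bleo_Vehicle. Nuclei with a Sfn UMI made up 3.12% of type I and 2.09% of type II nuclei in Bleo_Vehicle, and 0 of 539 type II nuclei in Bleo_NVP-BHG712, which allows up to 0.557% of nuclei with a UMI in the same sense. Whether RNA released into the suspension adds to the macrophage values was not tested.

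Sprr1a was the sparsest member. Type II nuclei of Bleo_Vehicle held 1, 0 and 27 UMIs in 8 nuclei (0.342%), PBS_NVP-BHG712 held 0, 0 and 4, Bleo_NVP-BHG712 held 0, 0 and 1, and PBS_Vehicle held 0 throughout. The pooled level was at least 4.11-fold that of PBS_Vehicle and 4.39-fold that of Bleo_NVP-BHG712 (95% counting interval 0.73 to 180), and nearly all UMIs came from the third Bleo_Vehicle library. Among type I nuclei, 9 UMIs in 6 nuclei were found, all in Bleo_Vehicle, and ciliated nuclei held none in any of the 12 libraries.

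Areg, the EGF receptor ligand, had values of 2.37, 3.13 and 0.677 CPM in type I nuclei of PBS_Vehicle and 6.84, 13.8 and 21.9 in those of Bleo_Vehicle. Bleo_NVP-BHG712 stood at 1.72, 0.599 and 7.73, overlapping Bleo_Vehicle by 1 library. PBS_NVP-BHG712 stood at 0, 2.76 and 40.7, so the highest library of all had received no bleomycin, and the 86 Areg UMIs of that group came from 10 nuclei. The log2 differences of 2.84 (SE 1.53, adjusted p = 0.368) and -2.04 (adjusted p = 0.487) did not pass.

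In type II nuclei, the class in which it was highest, Areg stood at 25.8, 43.1 and 62.9 CPM in PBS_Vehicle, 38.1, 31.6 and 87.9 in PBS_NVP-BHG712, 46.1, 121 and 163 in Bleo_Vehicle and 98.7, 29.2 and 69.8 in Bleo_NVP-BHG712. The groups overlapped, because the first Bleo_Vehicle library lay within the PBS_Vehicle range. Areg had the lowest adjusted p of the members in the type II comparison with PBS_Vehicle (log2 difference 1.71, SE 0.51, adjusted p = 0.0956), and the difference to Bleo_NVP-BHG712 was -0.97 (adjusted p = 0.298). Areg was detected in 386 type II nuclei (16.5%) and 119 type I nuclei (4.03%) of Bleo_Vehicle. Among the Bleo_Vehicle libraries, the keratins and Lgals3 were highest in the first in both alveolar classes, whereas Areg was highest in the third.

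Lgals3 fell in type II nuclei of Bleo_NVP-BHG712. The values were 42.8, 28 and 39.3 CPM in PBS_Vehicle, 42.1, 45.5 and 56.2 in PBS_NVP-BHG712, 131, 62.6 and 53.4 in Bleo_Vehicle and 44.6, 11.2 and 22.3 in Bleo_NVP-BHG712. All Bleo_Vehicle libraries lay above all of PBS_Vehicle and Bleo_NVP-BHG712, and the lowest of them lay within the range of PBS_NVP-BHG712. The log2 difference between Bleo_NVP-BHG712 and Bleo_Vehicle was -1.69 (SE 0.45, adjusted p = 0.0396, edgeR), and Bleo_Vehicle over PBS_Vehicle gave 1.13 (SE 0.39, adjusted p = 0.127). Lgals3 in type I nuclei stood at 77.7, 56.3 and 62.9 in PBS_Vehicle, 270, 76.3 and 71.3 in Bleo_Vehicle and 54.1, 46.1 and 74.5 in Bleo_NVP-BHG712, with log2 differences of 1.11 (SE 0.46, adjusted p = 0.230) and -1.21 (adjusted p = 0.167).

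The Lgals3 call in type II nuclei depended on single libraries. It was lost without the first (log2 difference -1.28, adjusted p = 0.0592) or the second (adjusted p = 0.0741) Bleo_Vehicle library, without the second (-1.26, adjusted p = 0.170) or the third (adjusted p = 0.130) Bleo_NVP-BHG712 library, and at adjusted p of 0.0506 to 0.0531 without any of 5 PBS libraries. Macrophage genes moved with it: the 9 markers of interstitial macrophages or monocytes summed to 38.0 to 110 CPM in the type II nuclei of Bleo_Vehicle, against 2.62 to 16.2 in PBS_Vehicle and 8.98 to 19.6 in Bleo_NVP-BHG712. The 8 markers of alveolar macrophages summed to 35.5 to 105 in Bleo_Vehicle, 5.24 to 93.0 in PBS_Vehicle and 3.19 to 24.7 in Bleo_NVP-BHG712, where 4 of the 8 were at 0. Without a cluster of 50 type II nuclei that also carried alveolar macrophage markers, the adjusted p was 0.0504. General capillary nuclei, too, held more Lgals3 in Bleo_Vehicle, at 3.63, 4.86, 22.5 ± 7.12 and 5.42 CPM, and the part of free macrophage RNA in the result was not tested. The summed level of 9 genes that respond to tissue dissociation was 174, 92.8 and 79.7 CPM in the type II nuclei of Bleo_Vehicle, 43.1 to 68.1 in PBS_Vehicle, 35.6 to 100.2 in PBS_NVP-BHG712 and 31.4 to 58.7 in Bleo_NVP-BHG712. The mitochondrial share of these nuclei was at least 0.698% in every Bleo_Vehicle library and at most 0.0912% in every library of the other groups, and the part of either in the result was not tested.

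**Figure D3:**
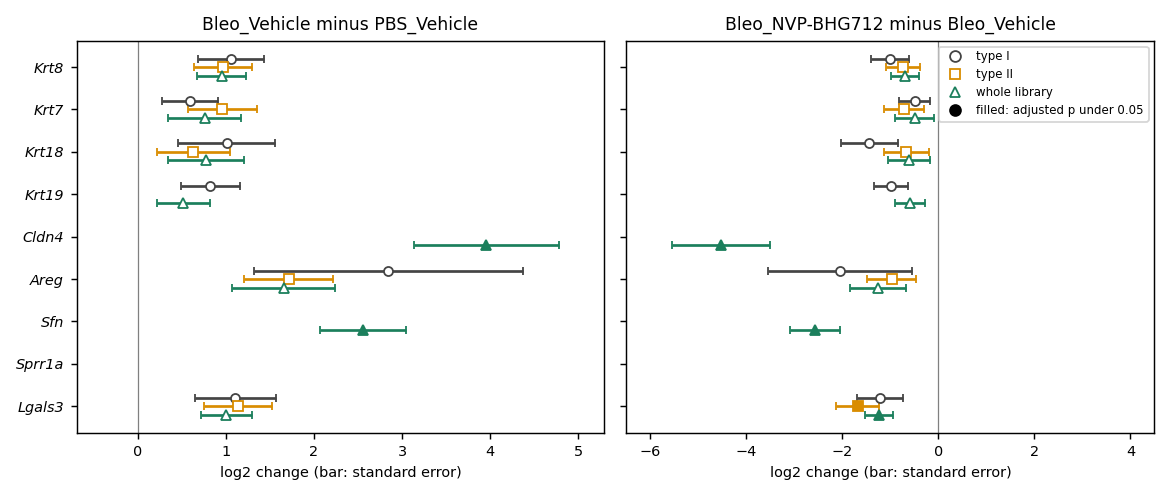
Points give the fitted log2 difference of each gene (horizontal axis) and bars its standard error, for Bleo_Vehicle minus PBS_Vehicle (left) and Bleo_NVP-BHG712 minus Bleo_Vehicle (right), in type I nuclei, type II nuclei and whole libraries, with filled symbols where the adjusted p was under 0.05. The filled symbols are Cldn4 and Sfn of the whole libraries in both panels, and Lgals3 of type II nuclei and whole libraries in the right panel.

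In the sums over all nuclei of a library, Cldn4 and Sfn rose in Bleo_Vehicle and fell in Bleo_NVP-BHG712, and Lgals3 fell in Bleo_NVP-BHG712. In such sums a change in the number of cells of a type and a change in RNA per cell cannot be told apart. Called members were 2 of 8 tested in the first comparison, all higher, against 2.44% of 14442 genes in either direction and 1.84% higher. In the second they were 3 of 8, all lower, against 5.51% in either direction and 3.55% lower. Cldn4 passed the filter on low counts only through the Bleo_Vehicle libraries in which it was high, so its call was favoured by the filter.

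Cldn4 stood at 0.315, 0.139 and 0 CPM in PBS_Vehicle (7, 1 and 0 UMIs), 7.23, 1.62 and 1.66 in Bleo_Vehicle (31, 22 and 77 UMIs), and 0.284, 0.145 and 0 in Bleo_NVP-BHG712. The Bleo_Vehicle libraries lay above all others. The log2 differences were 3.96 (SE 0.82, adjusted p = 0.0318) and -4.53 (SE 1.02, adjusted p = 0.0271), and the pooled ratio over PBS_Vehicle was 8.68 (95% counting interval 4.27 to 20.5). The first call was lost without any one of the 3 PBS_Vehicle libraries (adjusted p = 0.0591, 0.118 and 0.115) or without the first or second Bleo_NVP-BHG712 library (0.0532 and 0.0517), and the second without any one of the 3 Bleo_NVP-BHG712 libraries (0.0839, 0.0877 and 0.121).

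Sfn stood at 1.80, 1.11 and 2.05 CPM in PBS_Vehicle, 2.36, 2.04 and 2.25 in PBS_NVP-BHG712, 17, 6.19 and 5.27 in Bleo_Vehicle and 0.852, 2.18 and 1.30 in Bleo_NVP-BHG712. Again all Bleo_Vehicle values lay above all others, by a factor that differed between libraries. The log2 differences were 2.56 (SE 0.49, adjusted p = 0.0236) and -2.58 (SE 0.52, adjusted p = 0.0179). Without any one PBS_Vehicle library the first gave an adjusted p of 0.0573, 0.107 and 0.0788, and without the first or the third Bleo_NVP-BHG712 library the second gave 0.0810 and 0.0933.

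Lgals3 stood at 70.3, 37.4 and 44.9 CPM in PBS_Vehicle, 69.9, 39.4 and 49.9 in PBS_NVP-BHG712, 137, 71.0 and 83.1 in Bleo_Vehicle and 41.5, 31.2 and 49.8 in Bleo_NVP-BHG712. The Bleo_Vehicle libraries again lay above all others, the lowest of them by less than 1 CPM. The log2 difference was -1.24 (SE 0.29, adjusted p = 0.0339) to Bleo_Vehicle in Bleo_NVP-BHG712, and 1.00 (SE 0.29, adjusted p = 0.0919) for Bleo_Vehicle over PBS_Vehicle. The call was lost without the first Bleo_Vehicle library (-0.88, adjusted p = 0.0876) and without any one Bleo_NVP-BHG712 library (0.115, 0.105 and 0.0858).

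Counting all 9 members, 6 were higher in every Bleo_Vehicle library than in any PBS_Vehicle library (5 of the 8 tested, and 8.89% of all genes tested), and 4 were lower in every Bleo_NVP-BHG712 library than in any Bleo_Vehicle library (3 of the 8 tested, and 19.0% of all genes tested). Krt8 gave log2 differences of 0.95 (SE 0.28, adjusted p = 0.0987) and -0.70 (adjusted p = 0.152), and Areg of 1.66 (adjusted p = 0.157) and -1.26 (adjusted p = 0.204). Krt7 held 225, 91.8 and 74.5 CPM in Bleo_Vehicle against 74.9, 66.7 and 100 in PBS_Vehicle, with overlap. Sprr1a had 0 UMIs in all PBS_Vehicle libraries and 2, 8 and 42 in Bleo_Vehicle, at least 9.25-fold higher, and was too sparse for the test.

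**Figure D4:**
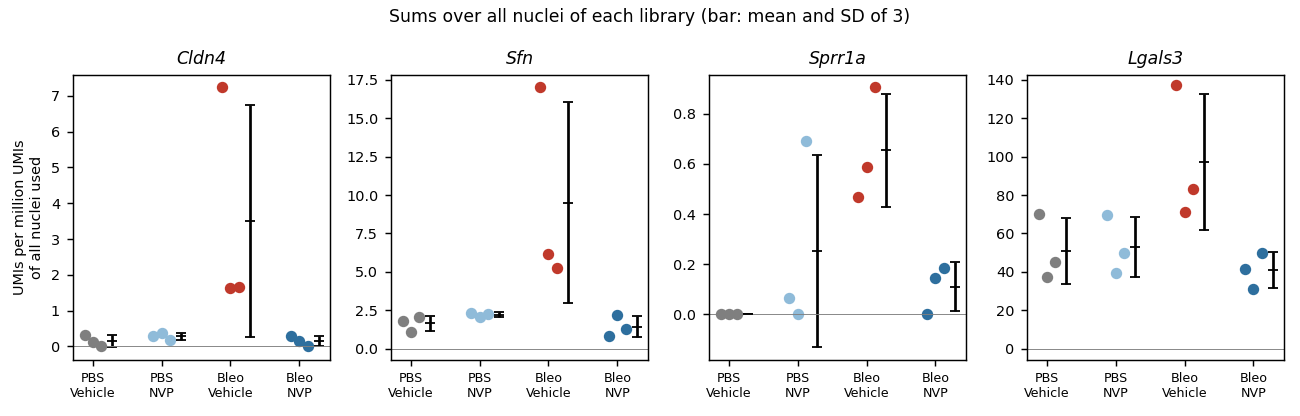
Each point is 1 library, in CPM of all nuclei used (vertical axis, from 0), by group, and the bar beside each group gives the mean and SD of 3. For Cldn4 and Sfn the first Bleo_Vehicle library (7.23 and 17) lies far above the other 2, which still lie above the remaining 9 libraries.

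The inhibitor without bleomycin (PBS_NVP-BHG712 against PBS_Vehicle) and bleomycin under the inhibitor (Bleo_NVP-BHG712 against PBS_NVP-BHG712) gave no called member in type I, type II, club or ciliated nuclei or whole libraries, where edgeR called 0.00% of all genes. Members without overlap in these comparisons were Krt19, which was higher with the inhibitor in type II nuclei, where it was not tested (3.36% of all genes tested were higher), and lower in club nuclei (3.18%), and, lower in Bleo_NVP-BHG712 than in PBS_NVP-BHG712, Krt7 in club nuclei (5.76%) and Krt8, Krt7 and the untested Krt19 in ciliated nuclei (5.95%). At an unadjusted p under 0.05 there were 137 and 281 genes in type I nuclei, 74 and 214 in type II nuclei and 43 and 397 in whole libraries, and 0 members in any of them, nor did DESeq2 call one. Without the filter on low counts, edgeR called Areg in type I nuclei in each of these comparisons. The interaction, which tests whether bleomycin's difference itself depends on the inhibitor, called no member either, with a lowest adjusted p of 0.363 in type I nuclei (0.129% of all genes called), 0.224 in type II nuclei (0.434%) and 0.116 in whole libraries (0.298%). In club (0.243% of all genes called) and ciliated nuclei (0.682%) it was 0.583 and 0.406. At an unadjusted p under 0.05 there were 1, 1, 4, 0 and 1 members, and DESeq2 called Sfn in whole libraries. By the edgeR test used here it is therefore not shown for any member that bleomycin acted differently with and without the inhibitor.

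In club nuclei, none of the 6 members tested was called in either comparison (lowest adjusted p = 0.588 and 0.463, against 3.05% and 2.19% of 6985 genes, 0 members at an unadjusted p under 0.05 and 0 by DESeq2). Krt8 stood at 31.1, 30.9 and 26.9 CPM in club nuclei of PBS_Vehicle, 37.5, 18.7 and 34.2 in Bleo_Vehicle and 50.3, 39.2 and 44.7 in Bleo_NVP-BHG712. Krt8 was therefore higher in every Bleo_NVP-BHG712 library than in any Bleo_Vehicle library (12.5% of all genes were), the opposite side to type II nuclei (the difference between the classes was not tested), while Areg, Lgals3 and the untested Cldn4 were lower (8.96%). Areg alone was higher in every Bleo_Vehicle library than in any of PBS_Vehicle in club nuclei (8.12%), at 25, 28 and 20.4 against 0, 18.2 and 4.48. The smallest club sum of a library held 80066 UMIs, so some of these values, and their order between groups, rest on few UMIs.

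In ciliated nuclei, Krt8 was lower in Bleo_Vehicle than in PBS_Vehicle in 2 of 3 libraries, at 15.3, 17.2 and 37.6 against 72.3, 58.5 and 30.1 CPM, with a log2 difference of -0.94 (SE 0.39, adjusted p = 0.216). Krt18 stood at 35.3, 30.8 and 24.1 in PBS_Vehicle, 15.3, 17.2 and 21.1 in Bleo_Vehicle and 79.8, 34.7 and 56.5 in Bleo_NVP-BHG712. Bleo_Vehicle lay below both groups without overlap (13.5% and 14.5% of all genes did so on these sides), and the log2 difference for Bleo_NVP-BHG712 over Bleo_Vehicle was 1.40 (SE 0.55, adjusted p = 0.154). None of the 5 members tested in ciliated nuclei was called, against 2.13% and 4.94% of 5867 genes, with 1 member at an unadjusted p under 0.05 in each comparison and 0 by DESeq2. The class held few UMIs in the first Bleo_Vehicle library, and the values of Krt8 and Krt18 there are 1 UMI each, so the order of that library in both genes rests on 1 UMI.

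Single nuclei were then asked whether they held several members together. To compare libraries of unequal depth, each nucleus was thinned to 500 UMIs, and the share of nuclei with UMIs of at least 2 of the 9 members was taken. For type I nuclei it was 1.01%, 0.909% and 0.990% in PBS_Vehicle, 6.15%, 1.83% and 1.33% in Bleo_Vehicle and 2.24%, 0% and 1.28% in Bleo_NVP-BHG712. The Bleo_Vehicle libraries lay above those of PBS_Vehicle, which gives p = 0.1 in a two-sided exact permutation test, the smallest that 3 against 3 allows, and overlapped those of Bleo_NVP-BHG712 (exact permutation p = 0.4). For type II nuclei the group means were 0.48%, 0.63%, 2.66% ± 2.23 and 0.62%, with exact permutation p = 0.2 and 0.3, and after adjustment over 12 such tests none was below 0.6.

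As background, at most 0.390% of general capillary nuclei in any library held 2 or more members at that depth. The share of type II nuclei with at least 1 member was 6.89%, 6.93%, 17.1% and 8.82%, and in capillary nuclei it was 1.30%, 1.82%, 4.73% and 0.87%, so the capillary share was also highest in Bleo_Vehicle. Median depth before thinning was 1081 to 5311.5 UMIs per nucleus in type II and 818.5 to 3170 in general capillary nuclei. Without thinning, the difference in type I nuclei between Bleo_Vehicle and PBS_Vehicle turned to -7.81 percentage points. Median depth of type I nuclei was 1402 to 6334.5 UMIs in the Bleo_Vehicle and 5286 to 8389.5 in the PBS_Vehicle libraries.

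The Cldn4-positive nuclei of Bleo_Vehicle, chosen after the values were seen and described without a test, carried other members. The 29 type II nuclei with a Cldn4 UMI came from all 3 libraries (8, 6 and 15) and were slightly deeper than the rest (median 2833 against 2283 UMIs). They held Sfn at 360 CPM against 6.56 CPM in the remaining type II nuclei, Sprr1a at 153 against 1.57, Krt8 at 243 against 31.8 and Lgals3 at 261 against 54.9. Close to as many Sfn UMIs came from these 29 nuclei (40) as from all other type II nuclei of the group (46). Krt7 (270 against 66.7), Krt18 (71.9 against 19.4) and Krt19 (27 against 11.5) were also read more, while Areg was not far apart (171 against 151). In the 29 nuclei these 3 keratins rest on 30, 8 and 3 UMIs.

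Of the type II markers, only the pair read for these nuclei is given here. Abca3, the lipid transporter of lamellar bodies, stood at 261 against 565 CPM, and Sftpc, surfactant protein C, at 2166 against 3500. The type I markers Rtkn2 and Ager stood at 117 against 272 and at 144 against 112, on 13 and 16 UMIs in the Cldn4-positive nuclei. Anxa1, a phospholipid-binding protein, stood at 809 against 126. The leukocyte gene Ptprc stood at 18 against 45, on 2 UMIs, and the endothelial gene Pecam1 at 62.9 against 54.2, and their mitochondrial share was 1.47% against 0.822%. Among type I nuclei, the 24 Cldn4-positive nuclei held Lgals3 at 526 against 83.4, Sfn at 78.3 against 6.13 and Areg at 106 against 18.4. Krt8 stood at 50.4 against 27.6, on 9 UMIs in the 24 nuclei, whereas Krt7 was level (235 against 244).

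Within each alveolar class most members stood at a higher level in 1 of 2 large clusters, although they had been left out of the genes used for clustering. In type II nuclei, cluster 0 (1752 nuclei) held every member at a higher level than cluster 4 (2749 nuclei): Areg at 191 against 63 CPM, Lgals3 at 82.7 against 29.6, Krt8 at 46.8 against 21.7, Krt7 at 102 against 42.1, Sfn at 16.2 against 2.6 and Cldn4 at 10.0 against 0.4. Clusters were drawn from the same nuclei, so this is a description. Cluster 0 was also shallower, with a median depth of 0.604 of the library median against 1.03 in cluster 4. It held more of the type I genes Rtkn2 (436 against 90.0 CPM) and Ager (108 against 64.0). Abca3 (551 against 1088) and Sftpc (3013 against 3337) were lower. The part of depth and of type I RNA in the member levels was not tested. In type I nuclei, cluster 27 (1196 nuclei) held Areg at 61.5 against 1.37 in cluster 13 (4862 nuclei), Cldn4 at 6.29 against 0.0977, Lgals3 at 120 against 66.2 and Krt8 at 37.7 against 21.7. Krt19 was close to level there (27.8 against 24.0), and Krt7 was lower (210 against 253).

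**Figure D5:**
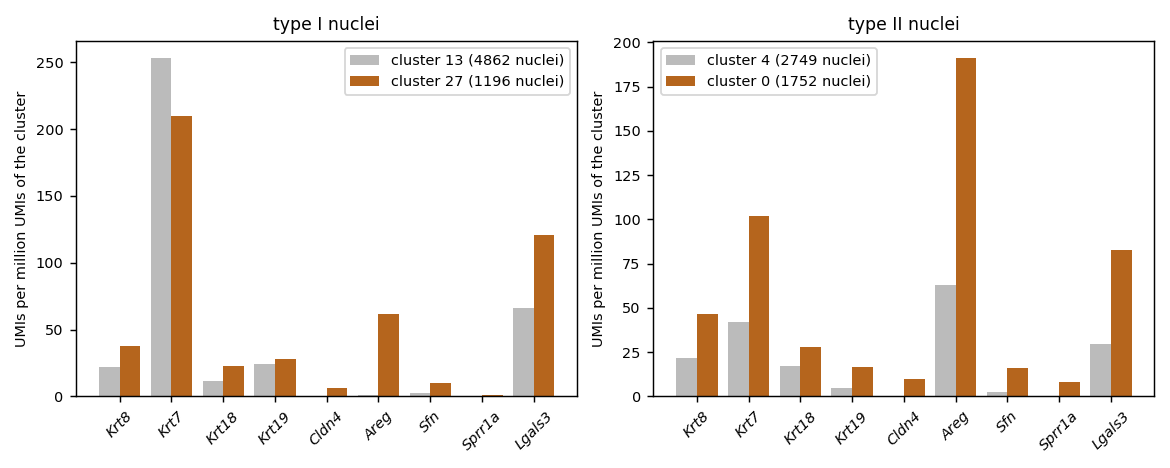
Bars, from 0, give the pooled level of each gene in CPM of a cluster, for the largest clusters of type I nuclei (left) and type II nuclei (right) over all 12 libraries. Cluster 0 is above cluster 4 for each gene, and cluster 27 is above cluster 13 for each gene but Krt7.

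By group, cluster 0 held 278, 360, 931 and 183 nuclei. In it Cldn4 was read at 0, 3.94, 15.6 and 0 CPM and Sfn at 0, 2.63, 26.4 and 0. Areg stood at 84.0, 120, 246 and 158, and Krt8 at 38.9, 32.9, 56.4 and 15.8. Those Krt8 values rest on 25, 25, 137 and 4 UMIs. The nuclei of cluster 0 without bleomycin thus held Areg and Krt8 but hardly Cldn4 or Sfn. In cluster 4 Areg stood at 21.8, 23.6, 118 and 35.0, so that its higher level in Bleo_Vehicle was seen in both clusters. Cluster 27 of the type I nuclei held 67, 111, 905 and 113 nuclei by group. Inside cluster 13 Krt8 stood at 22.2, 22.5, 22.8 and 16.1 and Krt7 at 249, 256, 255 and 248. Inside cluster 27 Krt8 stood at 8.93, 26.5, 40.9 and 39.1, on 3, 15, 198 and 24 UMIs. Areg stood there at 50.6, 146, 56.6 and 27.7, on 17, 83, 274 and 17 UMIs, and was thus highest in PBS_NVP-BHG712. These pooled levels weight each library by its depth, so the third Bleo_Vehicle library counts most in its group.

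Genes of the same setting were taken from fixed lists. Of a list of 20 further genes of the injury-associated alveolar state, 14 were tested in type I nuclei, of which 3, Cd44 and Ccnd1 among them, rose in Bleo_Vehicle over PBS_Vehicle (3.93% of all genes were called, and the median log2 difference was 0.85 for the list and 0.01 for all genes), and 3, Cd44 and Anxa2 among them, fell in Bleo_NVP-BHG712 against Bleo_Vehicle (5.24% of all genes were called, with a median of -0.69 for the list and -0.03 for all genes). Cd44, the hyaluronan receptor, stood at 6.37, 10.0 and 6.09 CPM in type I nuclei of PBS_Vehicle, 64.6, 50.2 and 51.4 in Bleo_Vehicle and 11.2, 5.99 and 9.38 in Bleo_NVP-BHG712. The Bleo_Vehicle libraries lay close together and far above all others. Log2 differences were 2.97 (SE 0.29, adjusted p = 0.000123) and -2.64 (SE 0.29, adjusted p = 0.000605), and in type II nuclei, where means were 240, 268, 266 and 207, no such difference was called. Type II nuclei hold Cd44 at a far higher level, and type II markers in the type I class summed to 269 to 1024 CPM in Bleo_Vehicle against 184 to 341 in PBS_Vehicle and 199 to 240 in Bleo_NVP-BHG712, a difference whose part in the type I values was not tested. Ccnd1, the cell cycle gene cyclin D1, rose by 2.52 (SE 0.60, adjusted p = 0.0336), a call that held in 15 of 22 alternatives. Ccnd1 passed the filter on low counts only through the Bleo_Vehicle libraries in which it was high.

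Of that list, 15 genes were tested in type II nuclei, and 5 rose in Bleo_Vehicle (among them Itgb6, S100a6, Anxa1, and Anxa2, which is named after its values were seen), with a median of 1.52 against 0.00 over all genes and 3.04% of all genes called. The same number fell in Bleo_NVP-BHG712, with a median of -1.58 against -0.02 and 4.85% of all genes called. S100a6 passed the filter on low counts only with the Bleo_Vehicle libraries counted. Itgb6, the integrin chain that activates TGF-β, stood at 32.3, 23.7 and 41.9 CPM in PBS_Vehicle, 270, 146 and 112 in Bleo_Vehicle and 31.9, 38.2 and 19.6 in Bleo_NVP-BHG712. No Bleo_Vehicle library came near the others. Log2 differences were 2.52 (SE 0.37, adjusted p = 0.00109) and -2.56 (SE 0.40, adjusted p = 0.00181). Anxa1 stood at 42.3, 58.2 and 60.2 in PBS_Vehicle, 131, 132 and 138 in Bleo_Vehicle and 15.9, 53.9 and 25.1 in Bleo_NVP-BHG712, with log2 differences of 1.52 (SE 0.30, adjusted p = 0.0125) and -2.10 (SE 0.34, adjusted p = 0.00197).

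Type I genes moved in the type II class as well. The 9 type I markers summed to 388 to 951 CPM in the type II nuclei of PBS_Vehicle, 1287 to 1503 in Bleo_Vehicle and 484 to 628 in Bleo_NVP-BHG712, with 3 of 7 tested higher in the first comparison and 5 lower in the second, against 3.04% and 4.85% of all genes called in either direction. Of the 10 type II markers, 4 were lower in Bleo_Vehicle in that class and 4 higher in Bleo_NVP-BHG712. Itgb6 and Krt7 are themselves read at high levels in type I nuclei, and the part of type I RNA in the type II values was not tested. Markers of basal cells, an airway cell that also expresses keratins, summed to at most 7.10 CPM in type I or type II nuclei.

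Genes of the EGF receptor family stood beside Areg on another list. Of 11 such genes, 7 were tested in type I nuclei, and 1, the receptor Erbb4, rose in Bleo_Vehicle by 3.23 (SE 0.63, adjusted p = 0.0138) and fell by 2.58 in Bleo_NVP-BHG712 (SE 0.61, adjusted p = 0.0277), while the list's medians were -0.10 and -0.17. Erbb4 stood at 1.27, 4.38 and 2.71 CPM in PBS_Vehicle and 32.7, 11.3 and 23.5 in Bleo_Vehicle, and passed the filter on low counts only through the latter. Among type II nuclei 7 were tested and none was called. Of 12 other keratins and claudins, 3 were tested in type I and 1 in type II nuclei and none was called in either comparison. A list of 9 genes that respond to tissue dissociation, Fos and Jun among them, had no called gene, but medians of 1.09 and -1.54 over 5 tested in type I nuclei, and its summed level was 210, 75.6 and 58.0 CPM in the 3 Bleo_Vehicle libraries against 19.2 to 86.6 elsewhere. The first of these libraries is also the one in which Krt8, Krt7, Krt18, Krt19, Cldn4, Sfn and Lgals3 were highest in type I nuclei, and the part of the dissociation response in those values was not tested.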

How the data were processed

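Nuclei of 12 mouse lungs were profiled with 10x Genomics 3′ chemistry, 1 library per mouse. Per the labels and file headers, the authors aligned reads to mm10 with Cell Ranger (version 7.0 in the submitters' processing notes, 7.2.0 in the file headers) and deposited whole-number counts of UMIs per gene and barcode without normalization, before the study's own filters. The study removed doublets and free RNA with tools of its own, and no correction for free RNA was made here.

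Nuclei with at least 200 and at most 6000 genes and at most 5% mitochondrial UMIs were kept (47319), and 2708 high doublet scores (scanpy 1.11.5, 0.8% per 1000 nuclei) were left out. Nuclei were clustered on 2000 variable genes and 30 components after Harmony correction by library (20 neighbours, Leiden resolution 1), with the 9 members and the 20 injury genes left out of the variable genes. Clusters were named from markers, and 621 nuclei stayed unnamed. Names may therefore differ from those of the study.

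UMIs were summed per class and library (at least 20 nuclei) and tested by edgeR 4.0.16 with its robust quasi-likelihood fit (two-sided, TMM, filterByExpr, all 12 libraries in 1 fit with a mean per group, Benjamini-Hochberg over all genes tested, threshold 0.05). The scripts were tested on simulated data. Shares of nuclei were compared with exact permutation tests after thinning to 500 UMIs, which left out no nucleus. Ratios of sparse genes carry exact 95% intervals for counts. Class sums held 281881 to 5583183 UMIs in type II and 1164576 to 12266642 in type I nuclei, and this depth limits Cldn4, Sfn and Sprr1a most. Gene coordinates are from GENCODE on GRCm38.

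Alternatives were other size factors, no filter, DESeq2 1.42.0, each library left out, the compared libraries alone, a replicate or run block, stricter nuclei, doublets kept, no batch correction and no mitochondrial genes. Members and gene lists were chosen with earlier results of these data known. All 9 members are described, and of each list the 3 called genes with the largest change per comparison are named. A gene that this rule selects is not reported here. Libraries are separate mice by the study's description. The highest correlation between any 2 libraries was 0.996, and none was counted as a duplicate.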

Additional observations from a re-analysis of the deposited data

Results flagged for a closer look

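Among the members and list genes named here, Cd44 in type I nuclei was the result in which the inhibitor's difference itself differed between bleomycin and PBS. Cd44 belongs to the injury-associated list and not to the 9 members. In that class the interaction called 12 of 9297 genes. For Cd44 it rests on the Bleo_Vehicle libraries, whose batch cannot be told apart from bleomycin with vehicle. The interaction was -2.84 on the log2 scale (SE 0.43, adjusted p = 0.0114, edgeR), with means of 7.49 ± 2.18, 8.62 ± 1.05, 55.4 ± 7.98 and 8.84 ± 2.63 CPM (SD, n = 3) in PBS_Vehicle, PBS_NVP-BHG712, Bleo_Vehicle and Bleo_NVP-BHG712. The direction was the same in all 3 Bleo_Vehicle libraries, each of which lay above the other 9. The interaction held in 17 of 21 alternatives (adjusted p 3.33e-06 to 0.159) and was lost without the third Bleo_NVP-BHG712 library (0.0597), without mitochondrial genes (0.0898), without batch correction (0.114) and without clusters under 300 nuclei (0.159). In the type I class the 10 type II markers summed to 269 to 1024 CPM in Bleo_Vehicle against 184 to 341 in the other groups, and the 8 alveolar macrophage markers to 26.6 to 36.4 against 3.38 to 15 elsewhere. The 9 interstitial macrophage or monocyte markers lay at 100 to 111 in Bleo_Vehicle and at 80.1 to 124 elsewhere. The part of these cell types in the Cd44 result was not tested.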

How the results depend on the processing

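Fits for single genes kept direction in every alternative, 370 with the call unchanged and 85 without it, and among counts of members called 489 stayed and 51 changed. Leaving out a library gave 0 to 2 members called in type I nuclei in both bleomycin comparisons (Bleo_Vehicle against PBS_Vehicle and Bleo_NVP-BHG712 against Bleo_Vehicle), the 2 being Sfn and Krt8 without the third Bleo_Vehicle library. In type II nuclei it gave 0 to 2 and 0 to 1, in ciliated nuclei 0 to 1 in each, in whole libraries 0 to 3 in each, and 0 to 1 for the interaction in type II nuclei, ciliated nuclei and whole libraries. Without the third Bleo_Vehicle library Lgals3 and Krt7 were called in type II nuclei, and without the first Areg was. No filter on low counts gave 5 and 6 members in type I nuclei, 4 and 4 in type II nuclei, 1 (Areg) in each other comparison of type I nuclei, and 2 and 1 for the interaction in type I and type II nuclei. DESeq2 gave 2 and 1 in type I nuclei, 4 in whole libraries for Bleo_Vehicle against PBS_Vehicle (Sfn, Cldn4, Lgals3 and Krt8) and 1 (Sfn) for their interaction. With only the libraries compared, 1 member (Areg) was called in type I nuclei against PBS_Vehicle, 0 in type II nuclei against Bleo_Vehicle and 0 and 0 in whole libraries. Stricter nuclei gave 0 in type II nuclei and 1 (Sfn) in whole libraries. Type II nuclei gave 1 (Areg) against PBS_Vehicle without batch correction and 0 against Bleo_Vehicle without the cluster of macrophage markers, a setting added after the data were seen, as was leaving out clusters under 300 nuclei. Keeping doublets gave 1 (Krt18) in ciliated nuclei. The cause of these changes was not tested. All genes called ranged from 111 to 1237 (365 as reported) and 56 to 1352 (487) in type I, 53 to 635 (196) and 82 to 854 (313) in type II, 32 to 463 (213) and 48 to 332 (153) in club, 20 to 1759 (125) and 33 to 1809 (290) in ciliated nuclei, and 28 to 1321 (352) and 75 to 2231 (796) in whole libraries.

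The labels do not say whether the replicate numbers pair the mice. In both PBS groups replicate 1 came from run 1 and replicate 2 from run 2. Deviations of same-numbered libraries correlated at -0.158 to 0.740. Of 18 pairs, 8, 4, 4, 4 and 9 were over 0.1 in type I, type II, club and ciliated nuclei and whole libraries. These correlations do not settle whether mice were paired. With the replicate number as a block, 1 member (Krt8) was called in type I nuclei, 4 in whole libraries against PBS_Vehicle (Sfn, Cldn4, Lgals3 and Krt8) and 1 (Lgals3) in their interaction, and the Lgals3 call in type II nuclei had an adjusted p of 0.0230. A run block in the PBS libraries gave 0.

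The share of nuclei with 2 or more members, a difference in percentage points, changed sign as follows. For Bleo_Vehicle minus PBS_Vehicle it was -7.81 in type I and -6.20 in club nuclei without thinning, and -0.449 in club nuclei with doublets kept. For PBS_NVP-BHG712 minus PBS_Vehicle it was 1.33 at 1000 UMIs, 0.0845 for 1 or more members, 0.0266 for 3 or more, 0.0606 without Lgals3 and 0.0684 with doublets in type I nuclei. It was -0.0769 at 1000 UMIs, -0.0942 not thinned, -0.0104 without Lgals3 and -0.217 without batch correction in type II nuclei. In club nuclei it was -1.60 not thinned, -0.213 for 1 or more, -0.388 for 3 or more and -0.158 without Lgals3. For Bleo_NVP-BHG712 minus PBS_NVP-BHG712 it was -1.64 at 1000 UMIs, -5.24 not thinned, -0.813 for 1 or more, -0.0266 for 3 or more, -0.422 with doublets and -0.200 without batch correction in type I nuclei. It was 1.89 for 1 or more, 0.162 for 3 or more and 0.281 without Lgals3 in type II nuclei, and -7.28 not thinned, -1.73 with doublets and -0.322 without batch correction in club nuclei. With 1 library left out, these differences ranged from -0.00443 to 1.12 (Bleo_NVP-BHG712 minus PBS_NVP-BHG712, type I), -0.629 to 0.303 (same, type II), -0.0949 to 0.500 (PBS_NVP-BHG712 minus PBS_Vehicle, type II) and -0.194 to 0.388 (same, club). No paired analysis was made for the shares, because the labels do not say that the replicate numbers pair the mice.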

Other observations

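Club nuclei fell into 2 clusters that differed in the members. Cluster 23 (224 nuclei), led by the secretory genes Bpifb1, Muc5b and Ltf, held Krt8 at 115 CPM against 22.2 in cluster 16 (1629 nuclei), Krt18 at 95.1 against 29.3, Krt19 at 111 against 37.3 and Lgals3 at 135 against 12.5. Krt7 stood at 121 against 69.8 and Anxa1 at 267 against 52.6. Areg went the other way, at 1.15 against 17.9. The 2 clusters were drawn from these nuclei, so no test was made.

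The genes whose mean level over 19 cell classes was most like that of a member, by Pearson correlation among 11787 genes, were Slc44a3 (0.97) and Scnn1a (0.96) for Krt8, Pard6b (0.92) and Chmp4c (0.92) for Krt7, 2010300C02Rik (0.95) and Prr15l (0.95) for Krt18, and Kif16b (0.88) and Tob1 (0.83) for Krt19. For Areg they were Piwil4 (0.94) and Nsun7 (0.91), and for Lgals3 Csf1r (0.89) and Dpep2 (0.89). Those of Cldn4 (Rap1gap and Slc18a1, 0.91 each), Sfn (Tmed8, 0.78, and Sgf29, 0.71) and Sprr1a (Jakmip2 and Scn9a, 0.98 each) rest on few UMIs. All values share the libraries, and the correlations are descriptions.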
